A study of Mus musculus with 6 samples.

Results

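The 10 genes described here are Acta2, Tagln, Myh11, Cnn1, Myl9, Des, Tpm2, Lmod1, Mylk and Actg2, the contractile genes of arterial smooth muscle, picked out of the tables by gene symbol. They are 10 of the 23183 genes in the expression tables, and 10 of 10 passed the filter of the test across genes, an average of 1 FPKM or more over the libraries. FPKM is the number of sequenced fragments divided by the transcript's length and by the mapped fragments of the library, so levels of different genes can be set beside each other per length.

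RNA was sequenced from cerebral microvessels, the small vessels isolated from mouse brain, of 3 TEKCRIF1 WT and 3 TEKCRIF1 KO mice on C57BL/6, with 1 library per mouse. Mice of both groups carried TEK-cre, a Cre recombinase driven by the endothelial Tek promoter. WT mice had the Crif1+/+ alleles, and KO mice the Crif1 flox/flox alleles that Cre removes in endothelial cells. Crif1 (Gadd45gip1) encodes a factor for protein synthesis on the mitochondrial ribosome. The age and sex of these mice are not stated in the sources used here, no mice without Cre were compared, and Tek-driven Cre is made for endothelial cells, not for smooth muscle.

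Smooth muscle cells wrap arteries and arterioles and set vessel diameter, whereas capillaries carry pericytes with little of the contractile machinery. In smooth muscle a rise of calcium activates myosin light chain kinase, which phosphorylates the regulatory light chain and lets smooth muscle myosin pull on filaments of alpha and gamma actin. The genes of this machinery are switched on together by serum response factor (SRF) with its partner myocardin, which bind a DNA element called the CArG box. In brain vessels Acta2, Tagln and Myh11 are the usual markers that tell arterial and arteriolar smooth muscle from capillary pericytes.

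Among the members, Acta2 (chromosome 19, 34241090 to 34255590, minus strand) and Actg2 (chromosome 6, 83512905 to 83536265, minus strand) encode the alpha and gamma actins of smooth muscle. Myh11 (chromosome 16, 14194535 to 14291372, minus strand) encodes the smooth muscle myosin heavy chain. Myl9 (chromosome 2, 156775420 to 156781658, plus strand) encodes the regulatory light chain, and Mylk (chromosome 16, 34745210 to 35002420, plus strand) its kinase. Tpm2 (chromosome 4, 43514711 to 43523765, minus strand) encodes a tropomyosin, which lies along actin filaments. Cnn1 (chromosome 9, 22099216 to 22109630, plus strand) encodes calponin, and Tagln (chromosome 9, 45929619 to 45936058, minus strand) its relative SM22, both actin-binding proteins. Lmod1 (chromosome 1, 135324807 to 135368065, plus strand) encodes leiomodin, which starts new actin filaments, and Des (chromosome 1, 75360329 to 75368579, plus strand) encodes desmin, the intermediate filament of muscle. Positions are those of GENCODE M21 on mm10, the build the submitters' processing notes name.

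CArG boxes, the element bound by SRF with myocardin, were looked for before the start sites of the 10 genes. RefSeq promoter sequences (GRCm38.p6, 250 bases before the start site) were at hand for 7 of the 10 genes, not for Tagln, Myh11 and Actg2. A box was read as CC, then 6 bases of A or T, then GG, and with 1 of those 6 bases replaced by G or C in the relaxed form, which was chosen after the promoters had been seen. The pattern reads the same on both strands. Boxes were found before Acta2, on the minus strand at chr19:34255438-34255467 and chr19:34255388-34255417, and before Myl9, on the plus strand at chr2:156775293-156775322 and chr2:156775355-156775384. Each is printed 5′ to 3′ with 10 flanking bases, and capitals mark the box.
Acta2, box 84 bases before the start site: gtgctgaggtCCCTATATGGttgtgttaga
Acta2, box 34 bases before the start site: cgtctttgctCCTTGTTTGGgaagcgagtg
Myl9, box 161 bases before the start site: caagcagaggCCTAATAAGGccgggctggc
Myl9, box 99 bases before the start site: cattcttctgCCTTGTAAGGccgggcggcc
The first Myl9 box is of the strict form and the other 3 are of the relaxed form. Both Acta2 windows lie within the first exon of a longer GENCODE transcript of the gene. The strict form was present in 1.47% of the 32851 promoters of the table and either form in 8.59%, and 0.67% held at least 2 boxes, as Acta2 and Myl9 did. The windows of Cnn1, Des, Tpm2, Lmod1 and Mylk held none, which says only that these letters are not in those 250 bases. Whether the boxes bear on the levels of the genes in these libraries was not tested.

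The libraries held an estimated 6300000 to 11600000 fragments, read from the steps between low values, so that a level of 3 fragments on a transcript of 1 kb was 0.259 to 0.475 FPKM. Each of the 10 genes was covered by far more than that, the lowest being Cnn1 in WT 2 with an estimated 34 fragments. Gadd45gip1 stood at 18.8, 15.3 and 16.5 FPKM in WT 1 to 3 and at 10.8, 7.54 and 10.4 FPKM in KO 1 to 3, so the targeted gene was lower in every KO library. KO 1 had the highest sum of FPKM, 539408 against 381187 to 449106 in the other libraries. Cdh5 and other endothelial markers were present in every library, beside markers of pericytes, fibroblasts, astrocytes, neurons, microglia and red cells, so the preparation was of mixed cells. In such bulk RNA, fewer smooth muscle cells and less RNA per smooth muscle cell cannot be told apart.

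The contractile genes were readily measured in all 6 libraries. Myl9 had the highest mean level, 200.4 FPKM, followed by Acta2 at 185 FPKM and Tagln at 159.8 FPKM. Tpm2 at 63.4 FPKM and Myh11 at 51.2 FPKM formed the middle. Mylk had a mean of 23.1, Des 17.1, Actg2 15.6, Cnn1 8.67 and Lmod1 8.0 FPKM.

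This order held in 6 of 6 libraries for 5 of the 9 neighbouring pairs, namely Acta2 over Tagln, Tagln over Tpm2, Tpm2 over Myh11, Myh11 over Mylk and Mylk over Des. Each of these had an exact sign-flip p of 0.03125, the smallest that 6 libraries allow, which becomes 0.0563 after Benjamini-Hochberg adjustment over the 9 pairs. Myl9 exceeded Acta2 in 5 of 6 libraries (exact p = 0.125), and Actg2 exceeded Cnn1 in 5 of 6 (exact p = 0.0625). Des and Actg2 (4 of 6, exact p = 0.531) and Cnn1 and Lmod1 (3 of 6, exact p = 0.906) did not differ beyond their spread over libraries.

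**Figure D1:**
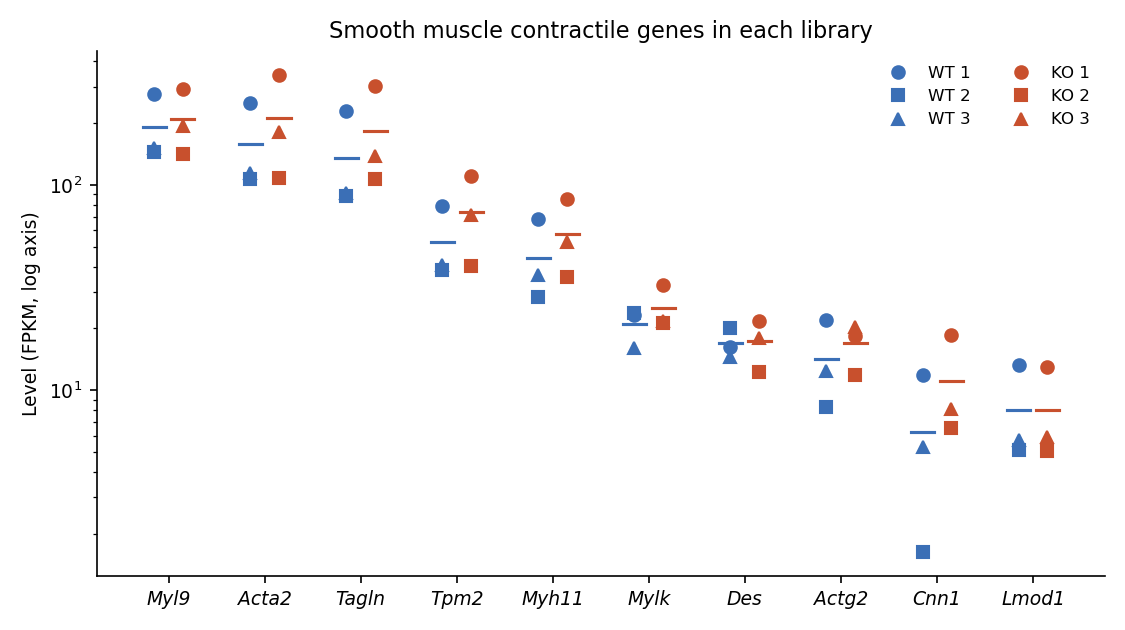
Level of each of the 10 genes (FPKM, log axis) in the 3 WT and 3 KO libraries, ordered by mean level. Each symbol is 1 library and each short line the mean of a group. Acta2 spanned 107 to 345 FPKM, with KO 1 and WT 1 highest, and WT and KO points overlapped for every gene.

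Acta2, the smooth muscle actin, stood at 252, 107 and 115 FPKM in WT 1 to 3 and at 345, 108 and 181 FPKM in KO 1 to 3. WT 1 and KO 1 were high, KO 3 was intermediate and the other libraries were low, so the groups overlapped. Tagln had 229, 88.3 and 91.3 FPKM in the WT and 304, 107 and 139 FPKM in the KO libraries. It followed the same order but for an exchange of WT 3 and KO 2.

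Myh11 measured 68.1, 28.5 and 36.4 FPKM in WT and 85.9, 35.7 and 52.5 FPKM in KO libraries, in the library order of Acta2. Tpm2 measured 78.9, 38.3 and 40.7 FPKM in WT and 111, 40.3 and 71.4 FPKM in KO, again in the same order. For Myl9 the values were 276, 145 and 151 FPKM in WT and 295, 141 and 194 FPKM in KO. WT 1 and KO 1 were thus the highest libraries for Acta2, Tpm2, Myh11 and Myl9 alike.

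Of the members with lower levels, Cnn1 and Lmod1 had the same pair of high libraries. Cnn1, at 11.9, 1.63 and 5.30 FPKM in WT and 18.6, 6.55 and 8.13 FPKM in KO, had the widest span, with an 11.4-fold distance from WT 2 to KO 1. Lmod1 had 13.3, 5.11 and 5.73 FPKM in WT and 13.0, 5.05 and 5.89 FPKM in KO, so that WT 1 and KO 1 were nearly level and the other 4 libraries were close together. Actg2 had 22.0, 8.31 and 12.4 FPKM in WT and 18.4, 11.8 and 20.4 FPKM in KO, and here KO 3 came second, above KO 1.

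Des and Mylk departed from this order. Des, the intermediate filament gene, had 16.2, 20.1 and 14.5 FPKM in WT and 21.7, 12.2 and 17.9 FPKM in KO. Mylk, the kinase gene, had 23.3, 23.8 and 16.0 FPKM in WT and 32.5, 21.3 and 21.7 FPKM in KO. In both, WT 2 was the second highest library, although it was the lowest for 6 of the other members. Whether other cells of the mixed preparation made part of the Des and Mylk RNA was not tested.

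Counted over the 10 genes, KO 1 was the highest library for 8 of them and WT 1 for the other 2. KO 1 and WT 1 were the highest pair for 7 genes (Acta2, Tagln, Myh11, Cnn1, Myl9, Tpm2 and Lmod1), and KO 1, WT 1 and KO 3 were the highest 3 libraries for 8, those 7 and Actg2. Within WT, 8 of 10 genes had the library order of Acta2, and within KO 9 of 10. The median distance between the highest and the lowest library was 2.77-fold for the 10 genes, against 1.82-fold for 9959 genes averaging 5 FPKM or more.

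**Figure D2:**
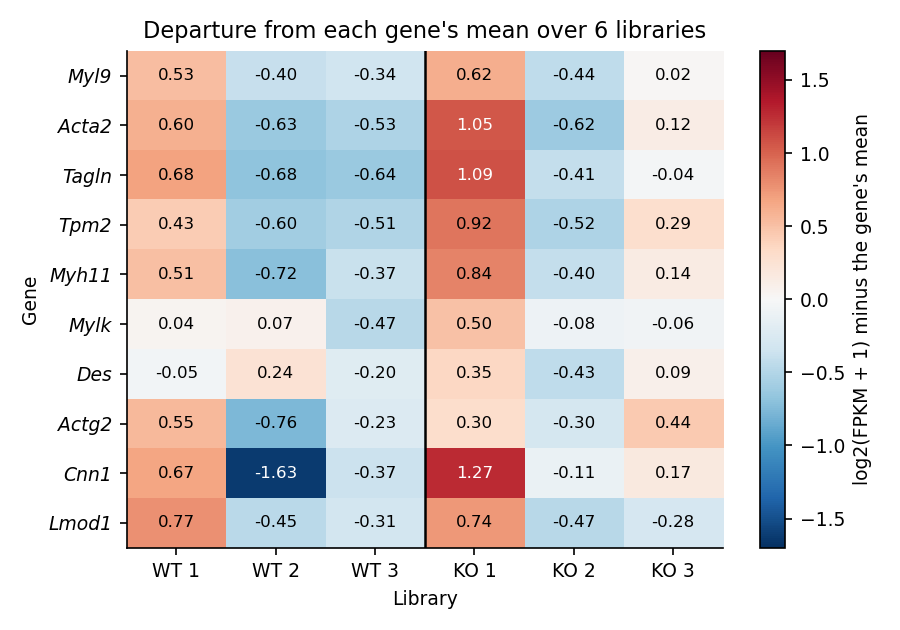
Departure of each library from the gene's mean over the 6 libraries, on the log2(FPKM + 1) scale, for the 10 genes in order of level. Red is above and blue below the mean, and the line parts WT from KO libraries. WT 1 and KO 1 were red for 9 and 10 of the 10 genes, and WT 2 was blue for all but Mylk and Des.

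The KO against WT comparison gives the levels of the contractile genes with and without Crif1 in the neighbouring endothelial cells. None of the 10 genes passed the limma test on log2(FPKM + 1). The counts were 0 of 10 at an adjusted p under 0.05 and 0 of 10 at an unadjusted p under 0.05. Of the 14247 genes tested, 5.88% passed the unadjusted threshold, 2.77% higher and 3.11% lower in KO, so 0 of 10 is near that share. The share with an adjusted p under 0.05 was 0% over all genes too, with 838 genes at an unadjusted p under 0.05. The WT and KO libraries overlapped for 10 of 10 genes. Among all genes, 5.37% had every KO library above every WT library and 5.70% had every KO library below, so this too is near the background.

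The direction was above 0 for 9 of 10 genes, against 49.2% of all genes tested, and the median log2 fold change of the 10 was 0.33, against -0.006 over all genes. These 10 directions are not independent, since the same libraries were high for most of the genes, and without KO 1 the count was 5 of 10. The median was then 0.02, and without WT 1 it was 0.69. For Acta2 the mean was 158 ± 81.7 FPKM in WT and 211 ± 122 FPKM in KO (SD, n = 3 each), and the log2 fold change was 0.37 with SE 0.44 and a 95% interval of -0.60 to 1.35, or 0.659-fold to 2.55-fold. The adjusted p was 0.931 (limma, Benjamini-Hochberg). With 3 against 3 libraries an exact two-sided permutation test cannot go below 0.1, and for Acta2 it gave p = 0.6.

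Tagln (136 ± 80.6 against 183 ± 106 FPKM, log2 fold change 0.43, SE 0.44), Myh11 (44.3 ± 21 against 58.0 ± 25.6 FPKM, 0.39, SE 0.37) and Tpm2 (52.6 ± 22.8 against 74.2 ± 35.4 FPKM, 0.45, SE 0.38) had similar differences of about their standard error. Leaving out 1 library moved them widely, Tagln from -0.01 without KO 1 to 0.87 without WT 1, Myh11 from 0.06 without KO 1 to 0.74 without WT 1, and Tpm2 from 0.11 without KO 1 to 0.83 without KO 2. Cnn1 had the largest, 6.27 ± 5.19 FPKM in WT and 11.1 ± 6.52 FPKM in KO, a log2 fold change of 0.89 with SE 0.54 and an interval of -0.31 to 2.08 (limma adjusted p = 0.848). Without WT 2, the lowest library of Cnn1, the log2 fold change was 0.30. Cnn1 had an unadjusted p of 0.0151 without WT 1, and Tpm2 one of 0.0353 without KO 2, with adjusted p-values of 0.963 and 0.349 (limma).

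The means were almost level for 3 members. Lmod1 had 8.03 ± 4.54 FPKM in WT and 7.97 ± 4.36 FPKM in KO, with a 95% interval of the log2 fold change from -0.89 to 0.88. Des had 16.9 ± 2.86 and 17.3 ± 4.81 FPKM, a log2 fold change of 0.01 with an interval of -0.55 to 0.56. Myl9 had 191 ± 74.2 and 210.1 ± 78.3 FPKM (log2 fold change 0.14, SE 0.33). Even the interval of Des, from 0.684-fold to 1.47-fold, leaves room for a difference in either direction. Mylk (21 ± 4.38 against 25.2 ± 6.37 FPKM, log2 fold change 0.24, SE 0.24) and Actg2 (14.2 ± 7.02 against 16.9 ± 4.53 FPKM, 0.29, SE 0.34) were between, with Mylk at 0.05 without KO 1 and Actg2 at -0.01 without WT 2. Over the 10 genes the adjusted p ranged from 0.848 to 0.999 and the exact permutation p from 0.4 to 1.0.

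**Figure D3:**
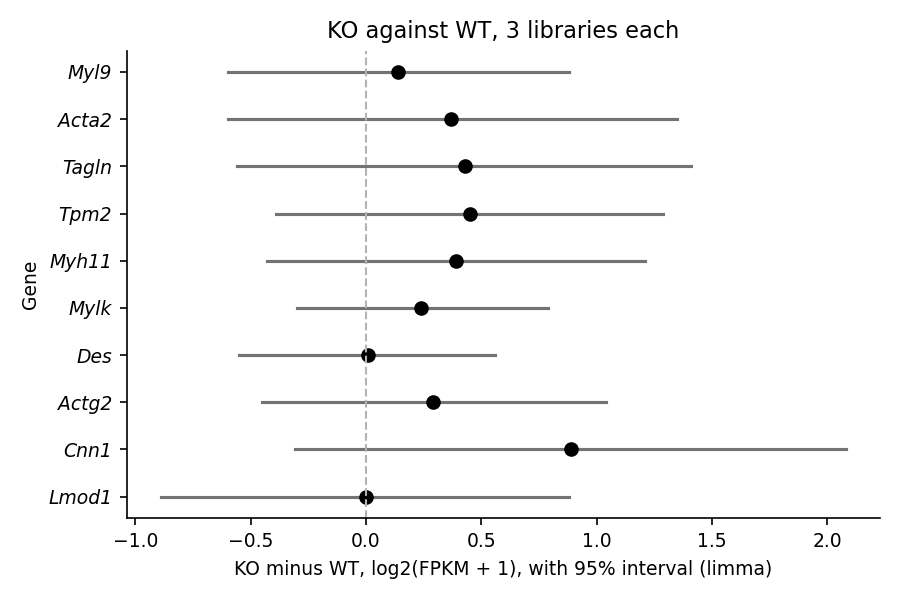
KO minus WT difference of each gene on the log2(FPKM + 1) scale (limma estimate, points) with its 95% interval (lines), 3 libraries per group. The interval held 0 for all 10 genes, and the points lay between -0.00 (Lmod1) and 0.89 (Cnn1).

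Genotype accounted for a median of 10% of the variance of a gene over the 6 libraries for the 10 genes, from 0.00053% for Lmod1 to 24.2% for Cnn1, against 13.8% over all genes tested. The remaining variance lay between libraries of one genotype. Within WT, Acta2 differed 2.36-fold between the highest and the lowest library, and within KO 3.21-fold, while the means of the groups differed 1.30-fold on the fitted scale.

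The members kept close to each other across libraries, more than pairs of genes in general. Over the 45 pairs of the 10 genes, the median Pearson r of log2(FPKM + 1) was 0.83 and the median Spearman rho 0.83, and 15 pairs had an r of at least 0.9. Over all pairs of genes tested the median r was 0.00, with 1.03% of pairs at 0.9 or above. The 6 points of each correlation are the same libraries, with their shared depth and cell composition, so these values are a description. Taken as deviations from the group means, which removes the genotype difference, the median over the 45 pairs was 0.84.

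Against Acta2 over the 6 libraries, Myh11 had r = 0.98 (exact permutation p = 0.00139, adjusted over the 9 genes 0.00626, rho 1.0) and Tpm2 r = 0.99 (same exact p-values, rho 1.0). Myl9 had r = 0.99 (exact p = 0.00278, adjusted 0.00834, rho 0.94), and Tagln r = 0.98 (exact p = 0.00417, adjusted 0.00938, rho 0.94). Lmod1 followed at 0.93 (exact p = 0.00694, adjusted 0.0125, rho 0.89) and Cnn1 at 0.86 (exact p = 0.0208, adjusted 0.0312, rho 0.94).

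The remaining 3 genes did not pass the adjustment. Actg2 had r = 0.82 (exact p = 0.0653, adjusted 0.084, rho 0.83), Mylk 0.72 (exact p = 0.103, adjusted 0.116, rho 0.37) and Des 0.56 (exact p = 0.244, adjusted 0.244, rho 0.37). After the libraries farthest from the median of Acta2, KO 1 and WT 1, had been left out, r with Acta2 over the other 4 libraries was 1.0 for Tpm2, 0.99 for Myl9, 0.93 for Myh11, 0.91 for Actg2 and 0.89 for Tagln. It was lower for Lmod1 (0.77), Cnn1 (0.59), Des (0.33) and Mylk (0.10). The relation of Cnn1 and Mylk with Acta2 thus weakened most without those libraries.

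The weakest pair of all was Cnn1 with Des at r = 0.11, and Des and Mylk correlated with each other at 0.70. Among the 8 genes other than Des and Mylk, a split made after the values had been seen, the median r over the 28 pairs was 0.92 and the lowest 0.72.

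The ratio of each gene to Acta2 within a library gave the same picture without any scaling between libraries. Tagln was 91.0%, 82.5% and 79.7% of Acta2 in WT 1 to 3 and 88.0%, 99.5% and 76.5% in KO 1 to 3, a coefficient of variation (CV) of 9.76% where that of its level was 55.0%. Tpm2 held 31.3% to 39.4% of Acta2 (CV 8.74%, against 45.9% for its level) and Myh11 24.9% to 33.1% (CV 11.1% against 43.4%). Myl9 (16.7% against 34.5%), Lmod1 (17.5% against 49.7%), Actg2 (25.5% against 35.2%) and Cnn1 (35.0% against 67.9%) also varied less as a ratio than as a level. Des (42.5% against 20.8%) and Mylk (37.8% against 23.3%) varied more as a ratio.

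Between the groups, the ratio of Lmod1 to Acta2 was 5.26%, 4.77% and 5.0% in WT and 3.76%, 4.69% and 3.25% in KO, with every KO library below every WT library. Its exact permutation p was 0.1, the smallest possible here, and 0.9 after adjustment over the 9 ratios. The ratios of the other 8 genes gave exact p-values of 0.2 to 1.0.

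**Figure D4:**
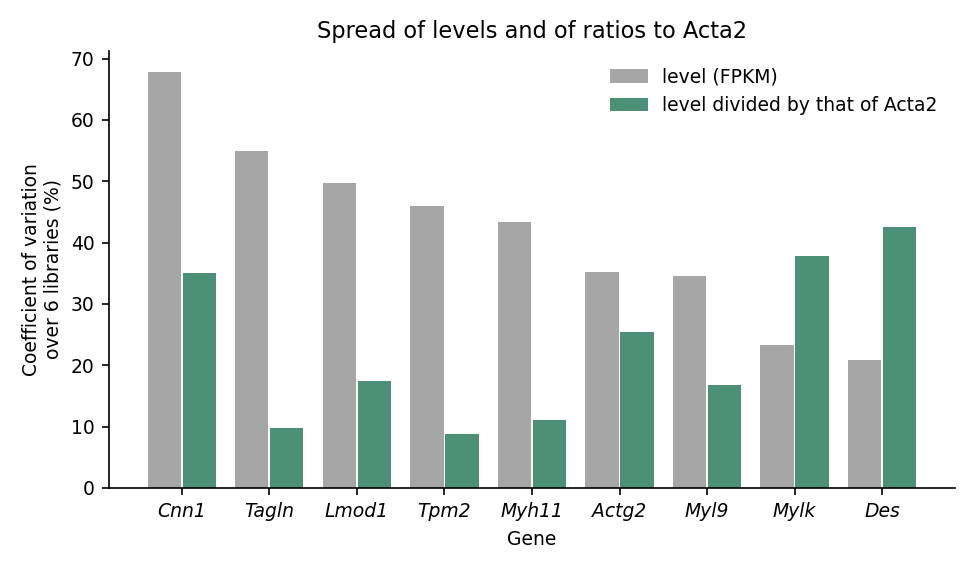
Coefficient of variation over the 6 libraries of each gene's FPKM (grey) and of its FPKM divided by that of Acta2 in the same library (green), in percent, for the 9 genes other than Acta2. The green bar was below 12% for Tagln, Tpm2 and Myh11 and above the grey bar for Mylk and Des alone.

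Among 9949 other genes averaging 5 FPKM or more, the mean of the 10 standardised members had an r of at least 0.9 with 91 genes, 0.915% of them. The 8 most alike over the 6 libraries were Mcam (r = 0.983), Eva1b (0.977), H2afv (0.974), Paip2 (0.974), Timm17a (0.973), Mustn1 (0.969), Ddit4 (0.967) and Pdlim1 (0.964). Mcam, an adhesion molecule of mural and endothelial cells, ranged from 33.7 to 50.3 FPKM. Ddit4, an inhibitor of mTORC1, ranged from 19.1 to 90.0 FPKM, and Mustn1, a small protein of muscle and skeleton, from 6.51 to 23.8 FPKM.

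Other genes of smooth muscle followed the members only in part. Of a list of 23, the sum stood at 888, 672 and 670.2 FPKM in WT and at 1038, 687 and 812 FPKM in KO, again highest in KO 1 and WT 1. The median r of these genes with the member mean was 0.45, against 0.05 over all genes tested, and 6 of 23 had an r of at least 0.8, against 3.25% of all genes. These were Pln (0.96), Tpm1 (0.93), Ppp1r14a (0.93), Csrp1 (0.90), Crip1 (0.86) and Synpo2 (0.80), named after their values were seen. Others of the list went the other way, with Ramp1 (-0.62) and Ppp1r12b (-0.60) lowest, also named after their values were seen. Pln encodes phospholamban, which restrains the calcium pump, and Ppp1r14a an inhibitor of myosin phosphatase.

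In KO against WT, 1 of the 23 was higher and 2 were lower at an unadjusted limma p under 0.05, where the shares over all genes were 2.77% and 3.11%. At an adjusted p it was 0 of 23 (smallest adjusted p = 0.841). The median log2 fold change was -0.00, with 11 genes above and 12 below 0. Crip1, a LIM-domain protein, had 124, 71.8 and 88.8 FPKM in WT and 254, 116 and 147 FPKM in KO (log2 fold change 0.81, SE 0.31). Adra2a, an adrenergic receptor, had 19.2, 16.3 and 8.86 FPKM in WT and 8.73, 6.63 and 5.93 FPKM in KO (-0.91, SE 0.29). Ramp1, a subunit of the CGRP receptor, had 13.6, 11.5 and 13.7 FPKM in WT and 5.76, 11.9 and 6.97 FPKM in KO (-0.65, SE 0.27).

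Every KO library was above every WT library for 1 of the 23, the actin-binding Nexn (log2 fold change 0.32), and below for 3, Adra2a, the PDZ and LIM domain gene Pdlim7 (-0.25) and Notch3 (-0.21). Over all genes the shares were 5.37% above and 5.70% below. Notch3, the Notch receptor of mural cells, stood at 27.1, 28.9 and 26.9 FPKM in WT and at 24.2, 23.5 and 23.4 FPKM in KO. Its level thus varied little within a group, unlike that of the members.

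The regulators of the contractile genes had a median r of -0.15 with the member mean, with 0 of 12 tested at 0.8 or above. Srf, the factor that binds CArG boxes, stood between 11.3 and 13.0 FPKM in WT and between 12.1 and 13.5 FPKM in KO (log2 fold change 0.04, SE 0.19), and its r was -0.61. Negative values were also found for Elk1 (-0.57), Mkl2 (-0.44) and Klf4 (-0.33). Myocd, encoding myocardin, was low, at 0.943, 0.435 and 0.666 FPKM in WT and 1.11, 0.57 and 0.554 FPKM in KO, and fell under the filter. Its highest libraries were KO 1 and WT 1 and its lowest WT 2, as for Acta2. With an estimated 19 fragments in WT 2 and 18 in KO 2, the library order of Myocd is uncertain. Hey2, a transcriptional repressor downstream of Notch, stood at 13.0, 8.07 and 9.86 FPKM in WT and at 14.1, 11.8 and 13.2 FPKM in KO, with an r of 0.80 after rounding, and Tead3 had an r of 0.78 (Hey2, Tead3 and Elk1 were named after their values were seen). The myocardin-related factors Mkl1 (-0.27, SE 0.22) and Mkl2 (-0.31, SE 0.19) did not pass the unadjusted threshold, though every KO library of Mkl2 was below every WT library.

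Klf4, a factor known to repress contractile genes in smooth muscle and also used by endothelial cells, had 24.2, 27.5 and 22.3 FPKM in WT and 13.8, 13.9 and 19.5 FPKM in KO. Its log2 fold change was -0.63 (SE 0.21, limma adjusted p = 0.841), with no overlap between groups. It was the 1 regulator of 12 tested with an unadjusted p under 0.05, against 5.88% of all genes, and Klf4 and Mkl2 were the 2 of 13 with every KO library below every WT library, against 5.70%. Of 18 genes of contraction signalling, such as Rhoa, Rock1 and Prkg1, 0 passed the unadjusted threshold, which 5.88% of all genes passed, and 0 the adjusted (limma), and the median log2 fold change was 0.04.

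The members were compared with their relatives outside smooth muscle. Of 15 tested genes of a list of relatives, mostly actins, myosins, tropomyosins, calponins and transgelins of non-muscle cells, with Vim and Mylk4, 0 were higher and 1 was lower at an unadjusted p under 0.05 (2.77% and 3.11% of all genes), the neuronal Tagln3 (22.8, 25.1 and 25.1 FPKM in WT against 10.3, 23.5 and 12.6 FPKM in KO). Their median r with the member mean was 0.47, about that of the other smooth muscle genes, with 1 of 15 at 0.8 or above (Tpm4, 0.82). Genes of striated muscle were scarce: 8 of 13 had a mean under 1 FPKM, and the 13 together summed to 10.9 to 14.9 FPKM per library.

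The summed markers of pericytes, of endothelial cells in general and of fibroblasts had another library order than the members. The sum of 12 pericyte markers was 1486, 1267 and 925 FPKM in WT and 1099, 981 and 967 FPKM in KO, and 3 of 12 were lower at an unadjusted p under 0.05 (Slc6a12, Cspg4 and Anpep), against 3.11% of all genes, with a median log2 fold change of -0.28. Pdgfrb, a receptor gene on this list, had 45.5, 45.6 and 36.9 FPKM in WT and 32.3, 30.8 and 33.6 FPKM in KO. WT 2, low for most contractile genes, was thus high for Pdgfrb and for the sum of the list, much of which was Vtn (995 FPKM in WT 1). The median r of the 12 with the member mean was 0.05, but 2 of 12 had an r of at least 0.8, Ndufa4l2 (0.83) and Mcam (0.98), which is on this list and was also the gene most like the members.

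The summed members divided by the summed pericyte markers gave 0.667, 0.368 and 0.527 in WT and 1.13, 0.498 and 0.736 in KO. The means were 0.521 ± 0.15 and 0.789 ± 0.321 (SD, n = 3 each), and the groups overlapped.

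The 12 endothelial markers summed to 1466, 1413 and 1056 FPKM in WT and to 1263, 939 and 1177 FPKM in KO. Of these, 1 was lower at an unadjusted p under 0.05, against 3.11% of all genes, Cdh5, the cadherin of endothelial junctions, at 86.7, 92.4 and 91.3 FPKM in WT and 50.8, 42.5 and 38.1 FPKM in KO. Emcn, the endothelial sialomucin endomucin, had every KO library above every WT library, as 5.37% of all genes did, at 26.5, 24.8 and 25.9 FPKM in WT and 46.7, 26.9 and 29.6 FPKM in KO (log2 fold change 0.37, SE 0.23), without passing that threshold. The median r of the 12 with the member mean was 0.30, with none at 0.8 or above and Emcn and Pecam1 at 0.78. Fibroblast markers summed to 2279 to 3509.9 FPKM in WT and 1749 to 2397 FPKM in KO. All 8 had a log2 fold change below 0, and 1 of 8 was lower at an unadjusted p under 0.05, against 3.11% of all genes, the collagen gene Col1a1 (-0.84, SE 0.29).

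Genes of arterial endothelial cells, which line the vessels that smooth muscle wraps, had the highest median r with the member mean among the lists other than the members, 0.68. The sum of 9 such genes was 783, 542 and 532 FPKM in WT and 792, 444 and 625 FPKM in KO, with KO 1, WT 1 and KO 3 as the highest libraries, as for the members. Of the 9, 3 had an r of at least 0.8, Mgp (0.92), Gkn3 (0.92) and Vegfc (0.80). Stmn2 (-0.75) and Efnb2 (-0.30) of the same list went the other way. Stmn2 was highest in WT 3, KO 2 and WT 2 (81.6, 74.3 and 60.6 FPKM), where the neuron markers also summed highest. Which cells of the preparation made the Stmn2 RNA was not tested. Of the 9 genes, 0 passed the unadjusted threshold in KO against WT, against 5.88% of all genes. Much of this sum was Mgp, an inhibitor of calcification made by arterial cells, at 548, 302 and 318 FPKM in WT and 516, 242 and 392 FPKM in KO.

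Neuron markers moved the other way. Their sum was 276, 475 and 600.2 FPKM in WT and 284, 458 and 189.5 FPKM in KO, lowest in KO 3, WT 1 and KO 1, the libraries in which the members were highest. The median r of the 8 neuron markers with the member mean was -0.62, and 3 of 8 had an r of -0.8 or below (Rbfox3, Tubb3 and Nefl). In KO against WT, 7 of 8 had a log2 fold change below 0 and 1 was lower at an unadjusted p under 0.05, against 3.11% of all genes, Slc17a7, a glutamate transporter (-0.86, SE 0.30). Astrocyte markers summed to 633 to 744 FPKM in WT and 479 to 535 FPKM in KO, without overlap, and had a median r of -0.16 with the member mean. All 8 had a log2 fold change below 0, and 2 of 8 were lower at an unadjusted p under 0.05, against 3.11% of all genes, Gfap (-0.52, SE 0.23) and Gja1 (-0.50, SE 0.20). The part of the cell types and of the sum of FPKM in the differences between libraries was not tested.

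**Figure D5:**
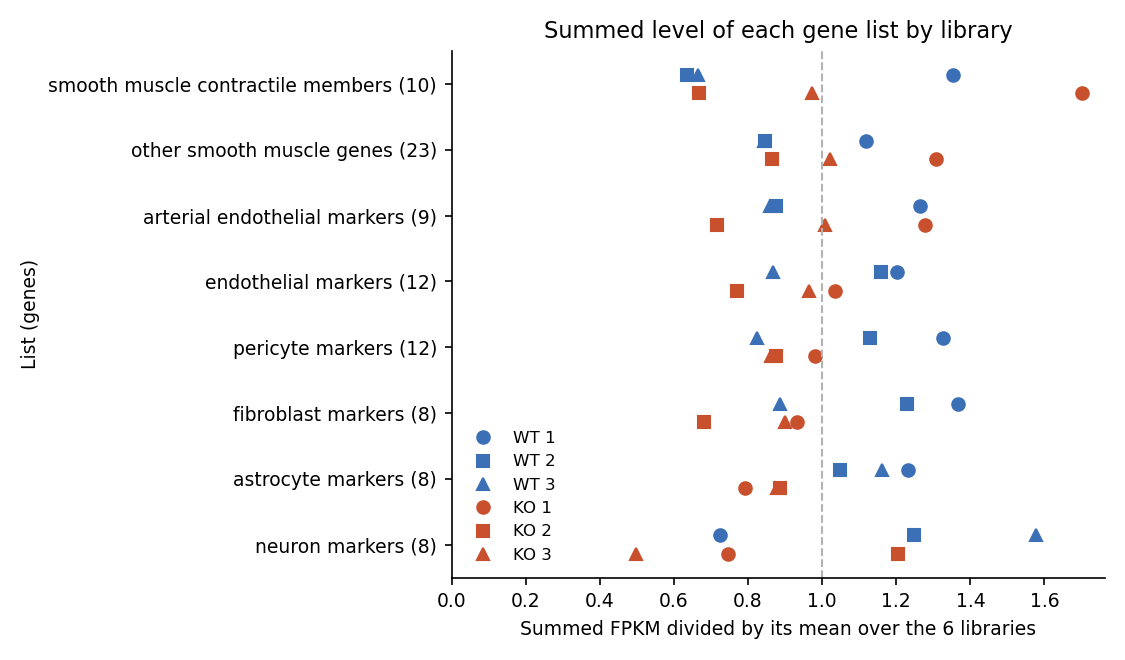
Summed FPKM of 8 gene lists in each library, divided by the mean of the list over the 6 libraries (number of genes in parentheses). Each symbol is 1 library. KO 1 and WT 1 lay to the right for the contractile genes, the other smooth muscle genes and the arterial endothelial markers, and to the left for the neuron markers.

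The 10 genes were checked for shared sequence. No window of 100 bases in the longest transcript of any member was found unchanged in a transcript of another gene, the 2 smooth muscle actins included. Only exact matches of that length were looked for, so shorter reads or reads placed with mismatches are not covered. Tagln overlaps Pcsk7, Des overlaps Gm15179, and Mylk overlaps 1700119H24Rik and E130310I04Rik, each on the opposite strand. The library kit keeps strand, but the strand setting of the counting is not given in the sources used here, so reads of those stretches could belong to either gene.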

How the data were processed

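Libraries (NEBNext directional kit, 3 WT and 3 KO mice) were aligned by the authors with TopHat to mm10, after checks and trimming with FastQC, FASTX and BBMap. The deposited values are FPKM per gene for each mouse. The quantifier and annotation are not given in the sources used here. The study tested counts with DESeq2, which FPKM do not allow. Here limma 3.58.1 (R 4.3.3, trended variance) was fitted to log2(FPKM + 1), without a replicate block, over the 14247 genes averaging 1 FPKM or more, with Benjamini-Hochberg adjustment. The pseudocount of 1 understates changes of low genes. The fit was tested on simulated data. P-values measure the spread between these mice. Depth was estimated from the steps between low values of 4696 single-transcript genes, and no deposited depth was used. Replicate numbers are those of the sample titles, and samples were grouped by them. GENCODE M21 gave a length for 22797 of 23183 symbols.

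Members and lists were chosen with earlier results of these data known. Named genes were the 10 members, up to 6 genes per list with an unadjusted p under 0.05 or no overlap between groups, 5 regulators, and the 8 genes most like the mean of the members. Other genes were named after their values were seen. The lists were other smooth muscle genes, regulators, contraction signalling, non-muscle relatives, striated muscle, and markers of pericytes, endothelial cells, arterial endothelial cells, fibroblasts, astrocytes, neurons, microglia, oligodendrocytes and red cells, with stress genes. Alternatives changed the filter, pseudocount, scaling, GC or length correction, variance prior, block and libraries used.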

Additional observations from a re-analysis of the deposited data

How the results depend on the processing

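Of 170 refits of single members, 147 kept direction and side of the unadjusted 0.05 threshold, and the smallest adjusted p was 0.349 (limma). The number of members with an unadjusted p under 0.05 was 0, but 1 with the replicate block (Cnn1, limma adjusted p = 0.684), 2 with the replicate block and GC content correction (Cnn1 and Tpm2, adjusted p = 0.834 and 0.956), and 0 to 1 with a library left out. The titles' numbers were not taken to pair the mice, and whether same-numbered libraries shared handling was not tested. In their deviations from the group means, same-numbered libraries correlated at 0.037, 0.027 and 0.002. Differently numbered ones ranged from -0.073 (WT 1 with KO 2) to 0.046 (WT 1 with KO 3, and WT 3 with KO 2). The block moved the genes with an unadjusted p under 0.05 from 838 to 871. Members above 0 numbered 5 to 10 with a library left out, 5 without KO 1. Their median log2 fold change was 0.02 to 0.69. Genes with an unadjusted p under 0.05 numbered 450 (without WT 2) to 1871 (without KO 2), 510 without KO 1. Genes with an adjusted p under 0.05 numbered 1 with no filter and 0 to 4 with a library left out (4 without KO 2 or KO 3, 1 without WT 3). Signs near 0 turned. Lmod1 had 0.0038 with the trimmed mean factor, 0.0043 with median scaling, 0.06 with GC content correction, with or without the block, and 0.01 with transcript length correction. Des had -0.0003 with quantile normalization. With a library left out, Acta2 ranged from -0.06 to 0.78, Tagln from -0.01 to 0.87, Myl9 from -0.14 to 0.44, Des from -0.17 to 0.22, Lmod1 from -0.37 to 0.38 and Actg2 from -0.01 to 0.64, with the low end of Acta2, Tagln, Myl9 and Des without KO 1. The ratio of members to pericyte markers, KO over WT, stayed between 1.19 and 1.79. Among the members, Cnn1 in WT 2, with an estimated 34 fragments, was the value most limited by depth.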

Other observations

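Markers of the other brain cells in the preparation are given here as values. Microglia markers summed to 234, 203 and 197 FPKM in WT and to 199.9, 154 and 165 FPKM in KO, and 1 of 8 was lower at an unadjusted limma p under 0.05, against 3.11% of all genes, C1qa, a complement subunit, at 63.6, 54.2 and 37.8 FPKM in WT and 43.9, 24.2 and 32.5 FPKM in KO. Oligodendrocyte markers summed to 489.6, 360.2 and 399.6 FPKM in WT and to 401, 359 and 211 FPKM in KO, with 3 of 6 lower at an unadjusted p under 0.05 (3.11% of all genes), the myelin genes Mobp (log2 fold change -1.13, SE 0.26), Mag (-0.84, SE 0.34) and Cnp (-0.61, SE 0.20). None of the markers of either list passed the adjusted threshold (smallest adjusted p = 0.841, limma), and their median r with the contractile genes was 0.01 and -0.09.

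Red cell markers summed to 2430.0, 1848 and 1769 FPKM in WT and to 2346, 1294 and 1209 FPKM in KO, highest in WT 1 and KO 1, and most of the sum was Hba-a1 (2215 FPKM in WT 1). Their median r with the mean of the contractile genes was 0.51, with Hba-a2 at -0.57 and Hbb-bs at -0.61. Of the 5 genes, 1 was lower at an unadjusted p under 0.05 (3.11% of all genes), the beta globin gene Hbb-bs, which was listed at 0 in WT 1 and in all 3 KO libraries, at 126 FPKM in WT 2 and at 10.6 FPKM in WT 3. Yet Hba-a1 stood at 1081 FPKM or more in every library, and Hba-a2 went from 0.0269 FPKM in WT 1 to 255 FPKM in WT 2. How reads of similar globin genes were counted is not given in the sources used here. The values of Hba-a2 and Hbb-bs, their r included, may thus not reflect transcript levels. Stress and immediate early genes summed to 63.1, 81.4 and 72.7 FPKM in WT and to 62.0, 50.7 and 41.2 FPKM in KO, and 1 of 7 tested was lower at an unadjusted p under 0.05 (3.11% of all genes), Egr1 (log2 fold change -0.68, SE 0.28).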
